A study of Mus musculus with 4 samples.

Results

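The transcripts described here encode the respiratory chain and ATP synthase subunits that are made from the nuclear genome. Members were all genes whose name on the array starts with Ndufa, Ndufb, Ndufc, Ndufs, Ndufv, Uqcr, Cox4, Cox5, Cox6, Cox7, Cox8 or Atp5, or is Sdha, Sdhb, Sdhc, Sdhd, Cyc1 or Cycs, without the Ndufaf assembly factors and without names that hold -ps. This rule used names and no measured value. It gave 86 genes with 134 probes, out of 32501 genes and 56605 probes on the arrays. Complex I contributed 36 genes, complex II 4, complex III 9, complex IV 19 and the ATP synthase 17, and Cycs encodes cytochrome c. The names also brought in 4 genes whose products are not subunits of these complexes, or only resemble one: Cox7a2l, Ndufa4l2, Atp5s and Atp5sl. The other 82 encode subunits, among them isoforms known from muscle, testis or lung.

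Gene expression was measured on single-colour Agilent arrays in naive CD4+ T cells and in cells cultured for 3 h toward induced Treg (iTreg) cells, from wild-type (WT) mice and from mice that lack the nuclear receptors Nr4a1, Nr4a2 and Nr4a3 (Nr4a-TKO). The series asked how Nr4a factors act early in iTreg differentiation, and each of the 4 conditions had 1 array. All cells were of the C57BL/6J background and were sorted as CD4+ cells with high CD62L, low CD44 and no Foxp3 from bone marrow chimeras made in irradiated Rag2-/- recipients. Nr4a-TKO marrow carried floxed Nr4a1 and Nr4a2 alleles and was Nr4a3-/-, and the Cre that deletes the floxed alleles is not given in the sources used here. Nr4a-TKO cells were taken from chimeras given WT marrow together with Nr4a-TKO marrow, whereas chimeras given WT marrow alone were the source of the WT cells, so genotype and kind of chimera cannot be told apart. Both iTreg conditions shared plate-coated anti-CD3 at 2 µg/ml, anti-CD28 at 0.5 µg/ml, 2-mercaptoethanol at 55 µM, 10% fetal bovine serum, anti-IFN-γ and anti-IL-4 at 1 µg/ml each, IL-2 at 10 ng/ml and TGF-β1 at 0.2 or 0.5 ng/ml, and the labels do not say which TGF-β1 dose was used. The labels give neither the age of the mice nor the number of mice behind an array. The authors' methods state an age range and both sexes for the mouse lines, but not which mice lie behind an array.

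In the respiratory chain, complexes I and II feed electrons from NADH and succinate into ubiquinone, complex III passes them on to cytochrome c, and complex IV hands them to oxygen. Complexes I, III and IV pump protons across the inner mitochondrial membrane, and the ATP synthase uses the gradient to make ATP. Most subunits are encoded in the nucleus and imported, while a small set is encoded by mitochondrial DNA. Resting T cells rely largely on oxidative phosphorylation, and activation through the antigen receptor is known to start growth, a rise in glycolysis and the build-up of new mitochondrial mass.

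With 1 array per condition, a difference between conditions has no replicate error, so no test was run and the number of arrays limits the precision. The arrays of a stage differ in genotype and were not used as replicates. The values are normalized log2 intensities of the brightest probe of each gene, and a difference between 2 arrays is a log2 fold change. Probes printed on 5 or more spots of an array gave an SD of 0.166 to 0.188 for a log2 difference between 2 arrays, which covers the array alone and not the mice. The files name 1 slide and 1 scan for the 4 arrays. Between 64.96% and 67.66% of probes were well above background per array. The brightest probes of the targeted genes were not lower under the Nr4a-TKO label: Nr4a1 was at 7.05 (WT) and 8.39 (Nr4a-TKO) in naive T and at 11.34 and 11.83 at 3 h, Nr4a2 at 6.24 and 6.44, then 8.84 and 10.20, and Nr4a3 at 6.88 and 6.90, then 9.46 and 9.65. Whether these probes lie in the deleted parts was not analysed here, and each direction between genotypes below rests on the labels. Foxp3, the defining factor of Treg cells, was lower under the Nr4a-TKO label, with differences of -1.30 in naive T and -1.36 at 3 h. Each array showed all 11 markers of naive CD4+ T cells well above background, and all 9 early activation genes were over 2-fold higher at 3 h in both genotypes. Of the markers of other cell types, 6 of 6 B cell genes, 4 of 8 myeloid genes, 3 of 5 erythroid genes, 1 of 4 NK cell genes, 1 of 4 platelet genes, 2 of 2 CD8 T cell genes and 4 of 4 Treg genes, Foxp3 included, were well above background on all 4 arrays, while Adgre1, Hbb-b1, Ahsp, Ncr1, Pf4 and Gp9 were on none. The summed level of the B cell list was 11.58 and 11.59 on the naive arrays against 11.18 and 11.39 at 3 h, and that of the myeloid list was 15.20 and 15.28 against 15.09 and 15.08. Without the brightest gene of each list, Cd22 and Itgam, the sums were 9.28 and 9.46 against 8.46 and 8.98, and 11.75 and 11.83 against 11.41 and 11.24. The myeloid gene Cd14 set the WT naive array apart, with 6.66 there and 3.97, 3.77 and 4.58 on the Nr4a-TKO naive, WT 3 h and Nr4a-TKO 3 h arrays, and the B cell gene Cd79b was lower at 3 h, with differences of -2.53 in WT and -1.21 in Nr4a-TKO. Their part in the differences described here was not tested. In such bulk samples, fewer cells of a type and less RNA per cell cannot be told apart.

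Respiratory chain transcripts were present throughout: 82 of the 86 members were well above background on all 4 arrays, as were 19797 of all 32501 genes. Cox8b, the heart and muscle form of a complex IV subunit, was on 2 of the 4. Cox7b2 and Cox8c, isoforms known from testis, and Atp5s, which has since been renamed Dmac2l and is not a subunit, were on none. Cox7b2 gave between 2.40 and 2.74, Cox8c between 2.33 and 3.51, and Atp5s between 3.06 and 3.28. The remaining 83 members could be compared.

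After 3 h under iTreg conditions more of these transcripts were higher than lower, by moderate amounts. The median log2 difference from WT naive T to WT iTreg at 3 h was 0.26 over the 83 members and -0.05 over the 23225 genes compared. Members above 0 numbered 57 of 83, against 46.4% of all genes. Past 2-fold, 7 members were higher (8.5% of all genes were) and 2 were lower (8.49% of all genes were). With the processed intensities scaled to their 75th percentile, 11 members were over 2-fold higher in WT (9.93% of all genes), and with the deposited log2 values 13 were (10.2%). At 1.5-fold, 27 members were higher in WT, where 17.1% of all genes were.

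The arrays labelled Nr4a-TKO gave a like picture. Their median difference was 0.23 over the members and -0.02 over 23713 genes. Members above 0 numbered 54 of 83 (48.4% of all genes), 5 were over 2-fold higher (7.74% of all genes) and 3 over 2-fold lower (8.06% of all genes). The 75th percentile and the deposited values each gave 10 over 2-fold higher (9.25% and 9.61% of all genes). At 1.5-fold, 18 members were higher (16.2% of all genes). The WT and Nr4a-TKO differences come from separate pairs of arrays, and they had the same sign in 74 of the 83 members and in 77.4% of all genes. In 48 members both arrays at 3 h lay above both naive arrays, compared with 31.2% of all genes, and in 20 both lay below, compared with 36.5%. The count below depended on the scaling, with 9 members (39.5% of all genes) at the 75th percentile and 8 (37.6%) in the deposited values.

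**Figure D1:**
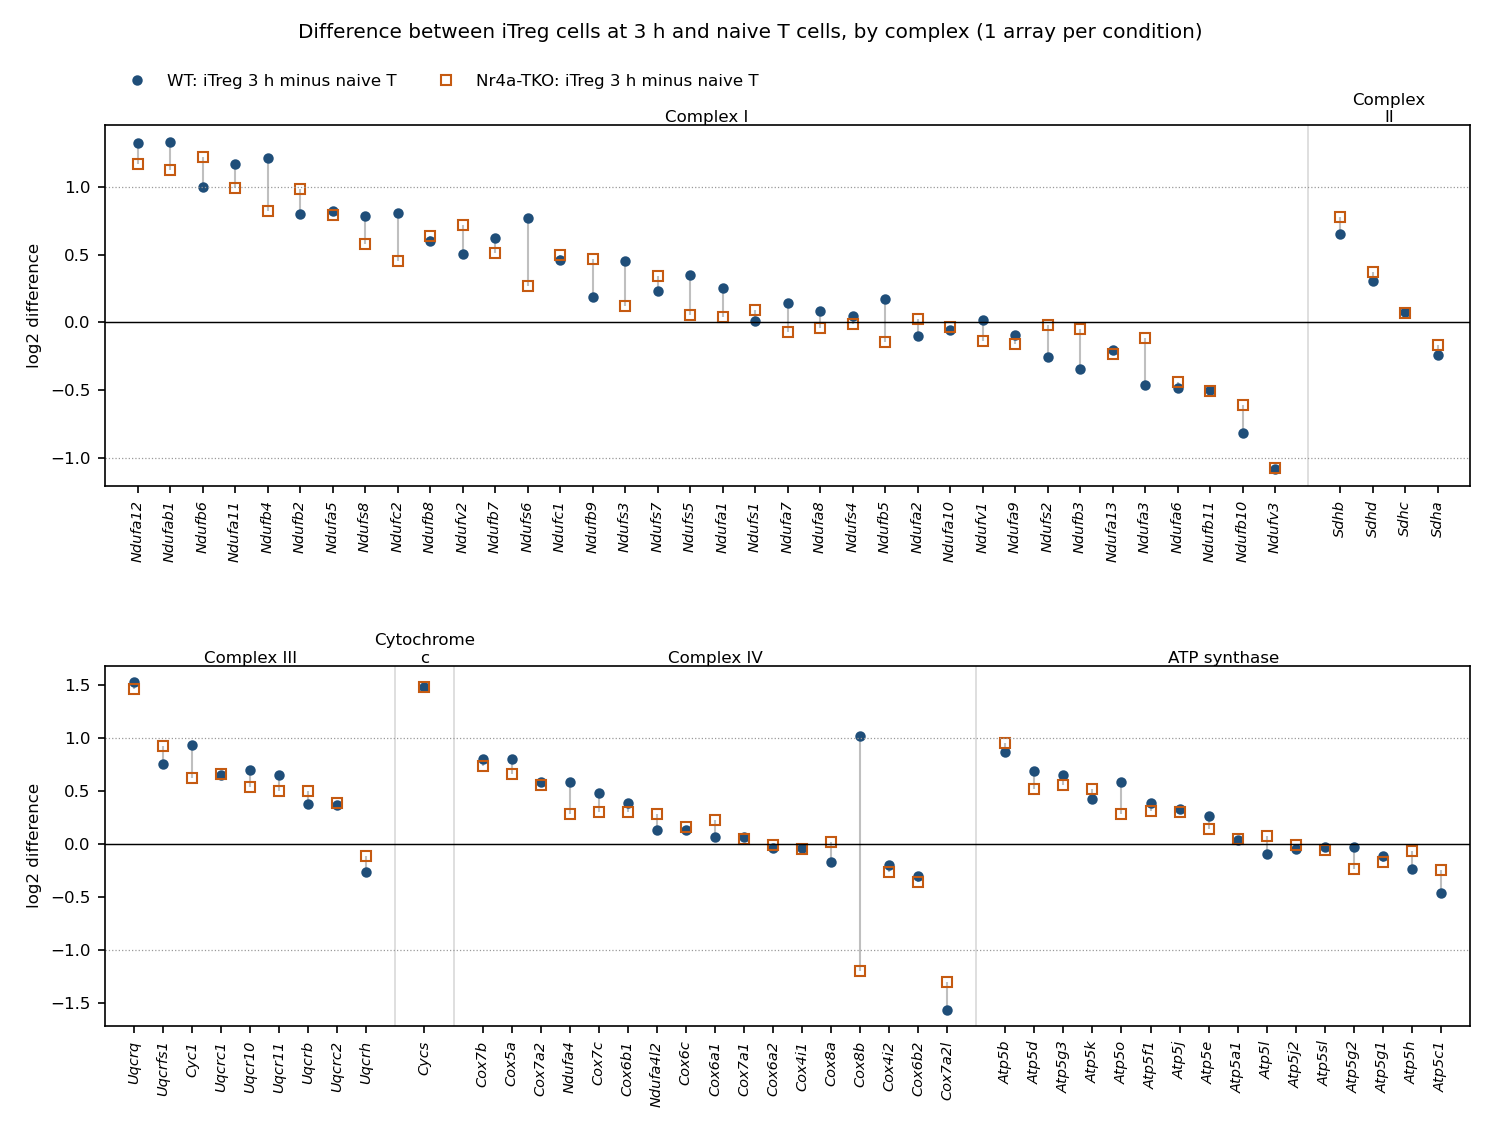
Log2 difference between iTreg cells at 3 h and naive T cells (y axis) for each of the 83 compared members (x axis), grouped by complex and ordered within it by the mean of both genotypes; filled circles are WT, open squares Nr4a-TKO, 1 array per condition, and dotted lines mark 2-fold. Uqcrq and Cycs lie highest, Cox7a2l and Ndufv3 lowest, and Cox8b is the member past 2-fold in opposite directions in WT and Nr4a-TKO.

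**Figure D2:**
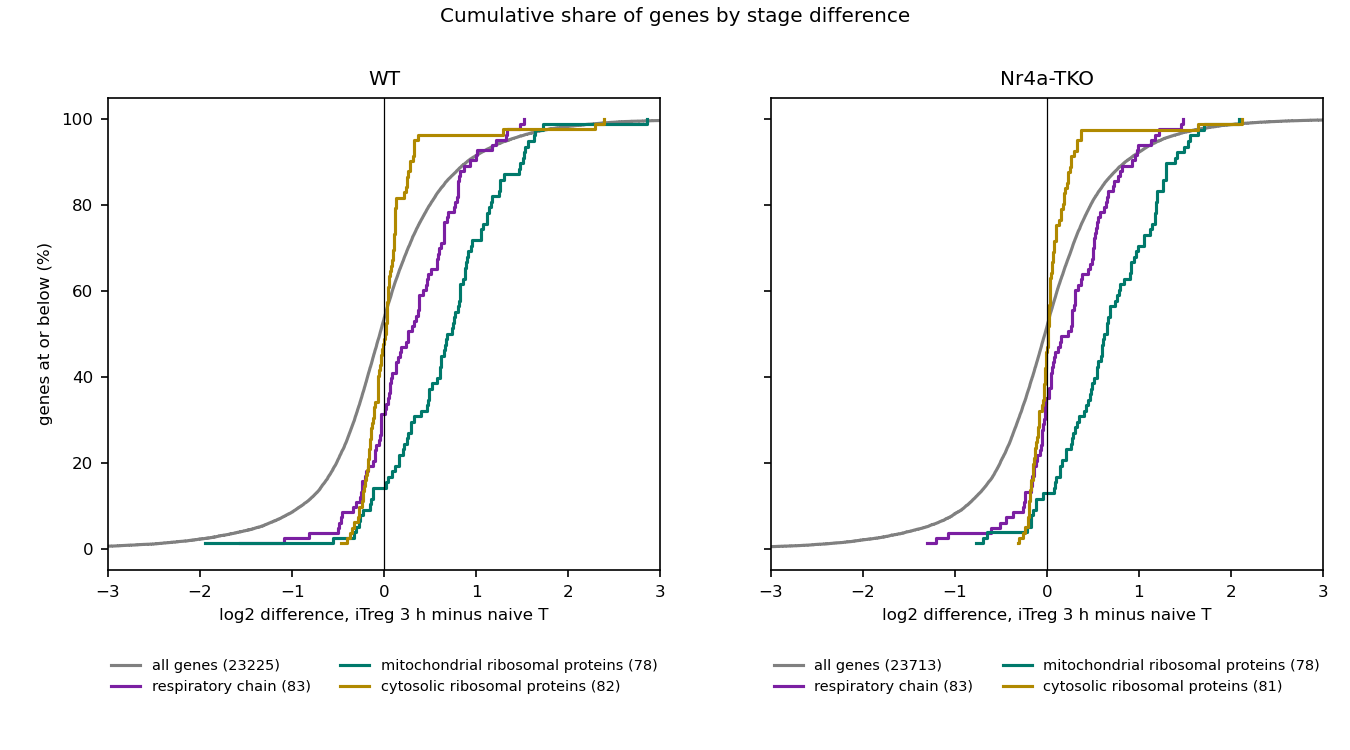
Cumulative percent of genes (y axis) at or below a log2 difference between iTreg cells at 3 h and naive T cells (x axis, central range shown), for WT (left) and Nr4a-TKO (right), with the number of genes compared in brackets. The respiratory chain curve (medians 0.26 and 0.23) lies between those of the cytosolic ribosomal proteins (0.01 and 0.01) and the mitochondrial ribosomal proteins (0.71 and 0.64).

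The share of members above 0 depends on the scaling. When the processed intensities were scaled to their 75th percentile instead, the median of all genes moved to -0.11 in WT and -0.07 in Nr4a-TKO, while 64 of 83 members (77.1%) were above 0 in WT and 68 (81.9%) in Nr4a-TKO, against 42.8% and 45.4% of all genes. Members were also split by their mean level, since they are brighter than most genes. In WT the median difference of members and of all genes was 0.34 and -0.04 below a level of 8, 0.23 and -0.06 from 8 to 9, 0.13 and -0.12 from 9 to 10, and 0.31 and -0.06 above 10. Members were higher than all genes in each of these 4 ranges.

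A set of 17 members was over 1.5-fold higher at 3 h in both genotypes, where 11.7% of all genes were, and 3 were over 1.5-fold lower, where 11.3% of all genes were. The 17 were Uqcrq, Cycs, Ndufa12, Ndufab1, Ndufb6, Ndufa11, Ndufb4, Atp5b, Ndufb2, Uqcrfs1, Ndufa5, Cyc1, Cox7b, Cox5a, Sdhb, Uqcrc1 and Ndufb8. They comprised 8 complex I genes, 4 of complex III, 2 of complex IV, 1 of complex II, 1 of the ATP synthase and Cycs. The 3 lower members were Cox7a2l, Ndufv3 and Ndufb10. Of the 17, 9 had a further probe above background, and all 11 such probes were higher in both genotypes, 7 of them by over 1.5-fold. Every one of the 17 kept its direction in both genotypes under each of the 6 other ways of computing the values, and so did the 3 lower members. With a normexp offset of 50, which pulls dim probes toward no change, 11 of the 17 and 2 of the 3 stayed past 1.5-fold (7.33% and 6.69% of all genes). With the 75th percentile 25 members were over 1.5-fold higher in both genotypes (13.0% of all genes) and with the deposited values 26 (13.5%), the 17 among them each time.

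**Figure D3:**
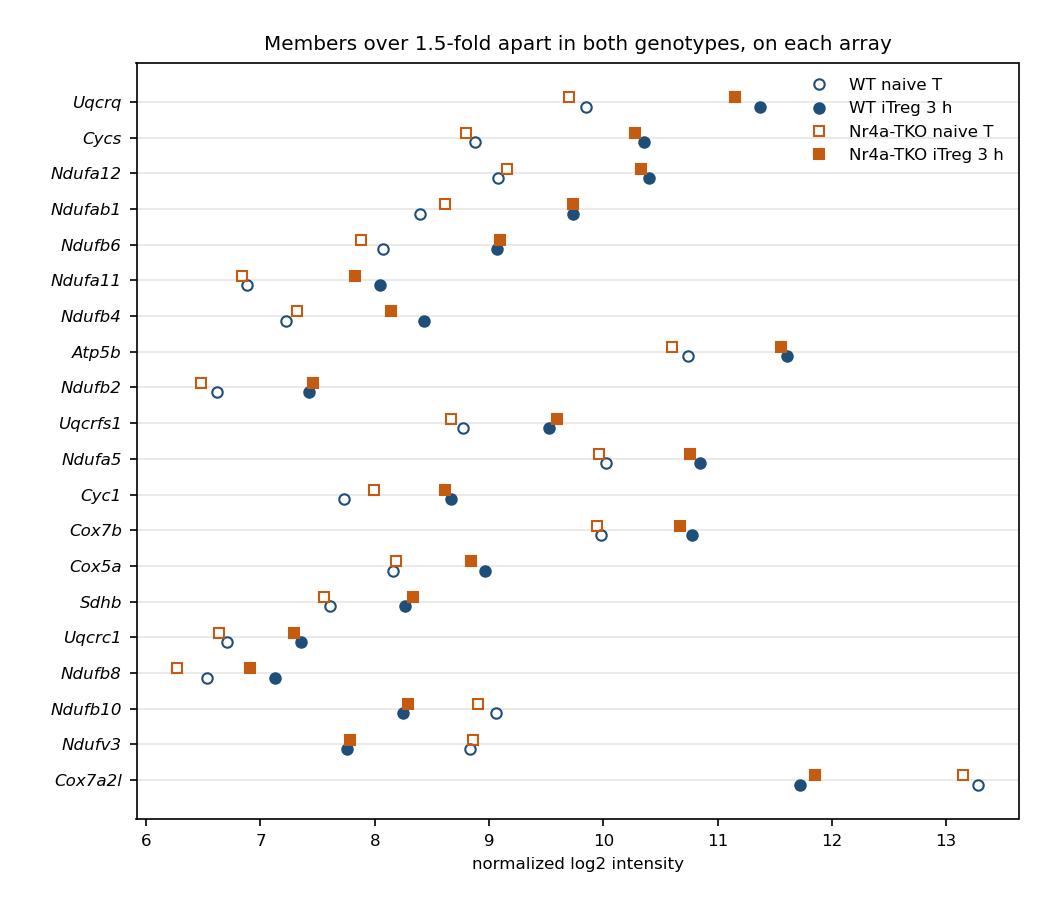
Normalized log2 intensity (x axis) of the 20 members that were over 1.5-fold apart between the stages in both genotypes (y axis), with 1 point per array; open symbols are naive T, filled symbols iTreg at 3 h, circles WT and squares Nr4a-TKO. Within a gene the arrays of one stage lie close together, and both arrays at 3 h lie above both naive arrays in 17 members and below them in 3.

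The promoters of these genes are shown because nuclear respiratory chain genes are known to share binding sites for NRF1, for Ets factors such as GABP and for YY1, and because a CREB site is a known feature of the Cycs promoter. RefSeq sequences on GRCm38.p6, 250 bases before to 50 after each annotated start, were found for 70 of the 86 members and searched on both strands. The NRF1 letters GCATGCGC were found in 11 of the 70 members (15.7%) and in 2.71% of all 32851 promoters, the Ets letters CCGGAAG in 16 (22.9%) against 8.86%, and the YY1 letters AAGATGG in 12 (17.1%) against 6.34%. The cAMP response element (CRE) letters TGACGTCA were found in 5 members (7.14%) against 1.79%. The E box letters CACGTG were in 7 (10.0%) against 7.15%. The Nr4a letters AAAGGTCA were in 0 of the 70, where 1.51% of all promoters hold them, and the core nuclear receptor letters AGGTCA, which those letters contain, was in 15 (21.4%) against 16.3%. Such matches are descriptions of letters and not of bound sites.

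Of the 17 higher members, 15 had a promoter sequence, and 4 of these 15 held the CRE letters, compared with 1 of the 53 other compared members that had a sequence. The NRF1 letters were in 4 of the 15 and 7 of the 53, the Ets letters in 2 and 14, the YY1 letters in 1 and 11, the E box letters in 0 and 7, and the core nuclear receptor letters AGGTCA in 6 and 8. The CRE, NRF1 and AGGTCA letters were thus more frequent among the higher members. The Ets, YY1 and E box letters were more frequent among the others. These are small counts with no test. The 250 bases upstream of the start follow for the 4 higher members with the CRE letters, for Ndufa10, which holds them and is not among the 17, and for Sdhb, a higher member with the NRF1 and AGGTCA letters. The brightest Ndufa10 probe gave -0.06 and -0.03, while its other 2 probes gave 0.80 and 0.56, and 0.24 and 0.59. Cycs lies at chr6:50566570-50566819 (minus strand), Ndufa11 at chr17:56717512-56717761 (plus strand) and Ndufb2 at chr6:39592315-39592564 (plus strand). Uqcrfs1 lies at chr13:30545317-30545566 (minus strand), Ndufa10 at chr1:92473759-92474008 (minus strand) and Sdhb at chr4:140961021-140961270 (plus strand). Each is written 5′ to 3′ on the strand of the gene, with the CRE letters TGACGTCA, the NRF1 letters GCATGCGC and the letters AGGTCA on either strand in capitals.
Cycs: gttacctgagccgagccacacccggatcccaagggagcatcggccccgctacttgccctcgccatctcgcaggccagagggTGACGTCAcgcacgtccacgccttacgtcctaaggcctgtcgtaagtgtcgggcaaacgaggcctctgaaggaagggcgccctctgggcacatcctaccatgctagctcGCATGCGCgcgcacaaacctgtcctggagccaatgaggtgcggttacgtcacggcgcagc
Ndufa11: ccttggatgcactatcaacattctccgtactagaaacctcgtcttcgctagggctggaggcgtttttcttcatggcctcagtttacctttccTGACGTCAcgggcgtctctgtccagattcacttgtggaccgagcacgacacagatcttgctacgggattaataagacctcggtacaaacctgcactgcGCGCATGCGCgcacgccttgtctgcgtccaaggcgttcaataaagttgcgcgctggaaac
Ndufb2: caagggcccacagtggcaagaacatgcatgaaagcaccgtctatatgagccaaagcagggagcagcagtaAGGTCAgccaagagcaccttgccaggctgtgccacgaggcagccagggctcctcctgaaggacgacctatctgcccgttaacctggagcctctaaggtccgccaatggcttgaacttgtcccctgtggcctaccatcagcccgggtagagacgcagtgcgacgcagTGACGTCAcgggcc
Uqcrfs1: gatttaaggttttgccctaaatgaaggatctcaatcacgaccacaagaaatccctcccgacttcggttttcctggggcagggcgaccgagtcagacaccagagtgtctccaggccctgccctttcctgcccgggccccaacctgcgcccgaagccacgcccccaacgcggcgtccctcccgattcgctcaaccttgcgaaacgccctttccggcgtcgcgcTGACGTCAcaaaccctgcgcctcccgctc
Ndufa10: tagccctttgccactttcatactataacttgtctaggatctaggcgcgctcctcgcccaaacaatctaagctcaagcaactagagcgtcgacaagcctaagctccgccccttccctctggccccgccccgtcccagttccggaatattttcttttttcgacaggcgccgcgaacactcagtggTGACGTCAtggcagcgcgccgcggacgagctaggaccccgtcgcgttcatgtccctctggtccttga
Sdhb: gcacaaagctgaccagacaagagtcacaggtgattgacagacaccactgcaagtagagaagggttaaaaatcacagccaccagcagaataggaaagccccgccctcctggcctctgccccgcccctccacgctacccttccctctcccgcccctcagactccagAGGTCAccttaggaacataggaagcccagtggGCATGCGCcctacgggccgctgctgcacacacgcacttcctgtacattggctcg
Counted from the annotated start, the CRE letters began at -169 in Cycs, -158 in Ndufa11, -14 in Ndufb2, -29 in Uqcrfs1 and -67 in Ndufa10. In Ndufa11 the 2 NRF1 matches, at -60 and -58, overlap on opposite strands. The AGGTCA letters began at -180 in Ndufb2 and -86 in Sdhb. Cycs and Ndufa11 were the 2 members that held both the CRE and the NRF1 letters.

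Complex I oxidizes NADH, and its transcripts lay on both sides of 0. Above 0 were 25 and 21 of its 36 genes in WT and Nr4a-TKO, against 46.4% and 48.4% of all genes. The median difference over the 36 genes was 0.21 in WT and 0.07 in Nr4a-TKO. The Nr4a-TKO value depended on the processing: it was 0.27 against 0.35 in WT with the 75th percentile, 0.29 against 0.37 in the deposited values, and 0.27 against 0.31 with all probes of a gene averaged. In 20 genes both arrays at 3 h lay above both naive arrays (31.2% of all genes) and in 9 below (36.5% of all genes). The membrane arm accessory subunits held 6 of the 8 complex I genes that were over 1.5-fold higher in both genotypes, out of 20 such subunits. Over all genes the share was 11.7%.

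Ndufa12 encodes an accessory subunit of the NADH-oxidizing N module (probe on chromosome 10 of mm9, 93683562 to 93683621). Its level was 9.08 in WT naive T, 9.16 in Nr4a-TKO naive T, 10.40 in WT iTreg at 3 h and 10.33 in Nr4a-TKO iTreg at 3 h. The difference between the stages was 1.32 in WT, or 2.50-fold, and 1.17 in Nr4a-TKO, with no overlap of the stages. Ndufab1 encodes the acyl carrier protein of mitochondria, which also serves as a subunit of complex I (chromosome 7, 129234361 to 129234420). Its level was 8.40 and 8.61 in WT and Nr4a-TKO naive T, and 9.73 and 9.74 at 3 h. The differences were 1.33 and 1.13. A second, dimmer probe gave 1.68 and 1.95, from 4.67 and 4.36 in naive T, so the probes ran opposite ways between the genotypes there.

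The membrane arm subunit Ndufb6 (chromosome 4, 40217720 to 40217779) was at 8.07 and 7.88 in naive T and at 9.07 and 9.10 at 3 h, a difference of 1.00 in WT and 1.22 in Nr4a-TKO. Ndufa11, which helps to hold the membrane arm together (chromosome 17, 56857241 to 56857300), was at 6.88 and 6.83 in naive T and at 8.05 and 7.83 at 3 h. Its differences were 1.17 and 0.99. Ndufb4 (chromosome 16, 37647711 to 37647770) was at 7.22 and 7.32 in naive T and at 8.43 and 8.14 at 3 h, with differences of 1.21 and 0.82. In these 3 membrane arm genes the stages did not overlap. Ndufb6 in WT and Ndufa11 in Nr4a-TKO lay just under 2-fold, and in the deposited values both genes were past it in both genotypes, with 1.19 and 1.41 for Ndufb6 and 1.30 and 1.07 for Ndufa11.

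Against this trend, Ndufv3, an accessory subunit of the N module with tissue-dependent splice forms (chromosome 17, 31668209 to 31668268), was lower at 3 h. Its level was 8.84 and 8.86 in naive T and 7.75 and 7.79 at 3 h. The differences of -1.08 and -1.07 were close to each other, and the second probe of the gene gave -0.98 and -0.91. Ndufb10, another membrane arm subunit (chromosome 17, 24859019 to 24859078), was at 9.06 and 8.90 in naive T and at 8.24 and 8.29 at 3 h, with differences of -0.81 and -0.61. Ndufb11 gave -0.50 and -0.51, and Ndufa6, a subunit of the ubiquinone-reducing Q module, -0.49 and -0.44.

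The catalytic core of complex I had medians near those of the whole complex. The 7 core subunits made in the nucleus carry the flavin and the iron-sulfur clusters. Their median difference was 0.23 in WT and 0.13 in Nr4a-TKO, where all 36 complex I genes gave 0.21 and 0.07. The highest was 0.79 and the lowest -0.25 in WT, and no core gene passed 2-fold. In 5 of the 7 both arrays at 3 h lay above both naive arrays (31.2% of all genes), and in 1 below (36.5%). Ndufs1, the largest iron-sulfur subunit, gave 0.01 and 0.09, and the flavin-binding subunit Ndufv1 gave 0.02 and -0.14. Ndufs8, which carries a pair of iron-sulfur clusters, gave 0.79 and 0.58.

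Complex II, succinate dehydrogenase, belongs to both the tricarboxylic acid cycle and the respiratory chain. Its 4 genes had a median difference of 0.19 in WT and 0.22 in Nr4a-TKO. Sdhb, the iron-sulfur subunit (chromosome 4, 140522514 to 140527081), was at 7.61 and 7.56 in naive T and at 8.27 and 8.33 at 3 h, which gave 0.66 and 0.78. Sdha, the flavoprotein (chromosome 13, 74460310 to 74460369), was at 9.01 and 8.78 in naive T and at 8.77 and 8.61 at 3 h, which gave -0.24 and -0.17. The catalytic partners Sdhb and Sdha thus lay at opposite ends of the complex. Of the further Sdha probes, 2 gave 0.57 and 0.20 in WT and the third -0.37, and the membrane anchors Sdhd and Sdhc gave 0.31 and 0.37, and 0.08 and 0.07.

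Complex III, the cytochrome bc1 complex, had the highest median of the complexes, 0.65 in WT and 0.54 in Nr4a-TKO. In 8 of its 9 genes both arrays at 3 h lay above both naive arrays, compared with 31.2% of all genes. Uqcrq, a small subunit that binds near cytochrome b (chromosome 11, 53242471 to 53242530), was at 9.85 and 9.70 in naive T and at 11.37 and 11.15 at 3 h. This was the highest difference among the members in WT, 1.52, or 2.87-fold, and it was 1.45 in Nr4a-TKO. Uqcrfs1, the Rieske iron-sulfur protein, was at 8.77 and 8.67 in naive T and at 9.52 and 9.59 at 3 h, with differences of 0.75 and 0.92. Cyc1, the cytochrome c1 subunit, was at 7.74 and 7.99 in naive T and at 8.67 and 8.62 at 3 h, with differences of 0.93 and 0.62. The electron-carrying subunits Uqcrfs1 and Cyc1 were therefore among the higher members in both genotypes, as was the core protein gene Uqcrc1, with 0.65 and 0.66. Uqcrh, the hinge protein (chromosome 4, 115739644 to 115739703), was the member at the low end. It was at 11.92 and 11.77 in naive T and at 11.66 and 11.65 at 3 h, which gave -0.27 and -0.11.

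Cycs encodes cytochrome c, the mobile carrier between complexes III and IV, which also triggers caspase activation once released from mitochondria (chromosome 6, 50515092 to 50515151). It was at 8.88 and 8.80 in naive T and at 10.35 and 10.28 at 3 h. The differences were 1.48 in both genotypes, and its second probe gave 1.95 and 1.51. The WT and Nr4a-TKO arrays lay close together at each stage for the brighter probe, with genotype differences of -0.08 in naive T and -0.07 at 3 h.

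Complex IV, cytochrome c oxidase, had a median difference of 0.13 in WT and 0.16 in Nr4a-TKO over 17 compared genes. The 10 subunits known from most tissues gave medians of 0.43 and 0.29. In 7 of them both arrays at 3 h lay above both naive arrays (31.2% of all genes) and in 0 below (36.5%). Cox7b, a small membrane subunit (chromosome X, 103217214 to 103217271), was at 9.98 and 9.94 in naive T and at 10.78 and 10.67 at 3 h, which gave 0.80 and 0.73. Cox5a, which lies on the matrix side, gave 0.80 and 0.66. Cox4i1, the common form of subunit 4, was at 11.44 and 11.29 in naive T and at 11.40 and 11.24 at 3 h, which gave -0.04 and -0.05. The Cox4i1 difference was smaller than the spread between spots, whereas those of Cox7b and Cox5a were several times larger.

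The lowest difference of all members belonged to Cox7a2l, which encodes a relative of subunit 7a (chromosome 17, 83901272 to 83901331). Its level was 13.28 and 13.15 in naive T and 11.72 and 11.85 at 3 h. It was thus -1.56 in WT, or 2.95-fold lower at 3 h, and -1.30 in Nr4a-TKO. Cox7a2, the common form of subunit 7a, was at 9.76 and 9.75 in naive T and at 10.34 and 10.30 at 3 h, a difference of 0.58 and 0.55. The related names Cox7a2 and Cox7a2l therefore differed in direction in both genotypes. Cox7a2l has 1 probe on the array, so no second probe could be compared.

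The 5 compared isoforms with a restricted tissue range differed by less than 2-fold between the stages, except Cox8b, which was at 3.40 and 4.65 in naive T and at 4.46 and 3.45 at 3 h, above background on the Nr4a-TKO naive and WT 3 h arrays. Cox7a1, the heart and muscle form, was at 5.80 and 5.81 in naive T and at 5.86 and 5.85 at 3 h. Cox6a2, the heart and muscle form of subunit 6a, ranged from 4.34 to 4.54 over the 4 arrays, and its common form Cox6a1 was at 11.54 and 11.04 in naive T and at 11.60 and 11.27 at 3 h. Cox6b2, known from testis, was at 6.28 and 6.31 in naive T and at 5.98 and 5.95 at 3 h, and the common form Cox6b1 was at 7.99 and 8.05 in naive T and at 8.37 and 8.35 at 3 h. In the subunit 6b pair the 2 genes differed in direction, with -0.30 and -0.36 for Cox6b2 and 0.38 and 0.30 for Cox6b1. Cox4i2, the form known from lung, was at 8.88 and 8.99 in naive T and at 8.68 and 8.73 at 3 h. Cox8a, the common form of subunit 8, was at 8.66 and 8.70 in naive T and at 8.49 and 8.71 at 3 h. Ndufa4, now known to be part of complex IV, gave 0.58 and 0.28, and its relative Ndufa4l2 gave 0.13 and 0.28 at levels of 4.22 to 4.49. The other Ndufa4l2 probe gave -0.33 and -0.37. Intensities of different probes are not on a common scale, so the levels of isoforms were not set against each other.

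The ATP synthase had a median difference of 0.15 in WT and 0.11 in Nr4a-TKO over 16 compared genes. Without Atp5sl, which encodes no subunit, the medians were 0.26 and 0.14. Above 0 were 9 and 10 of the 16, against 46.4% and 48.4% of all genes. Atp5b, the catalytic β subunit (chromosome 10, 127526024 to 127526083), was at 10.74 and 10.60 in naive T and at 11.60 and 11.55 at 3 h, and all 3 of its probes gave a higher signal at 3 h. The difference was 0.86 in WT and 0.95 in Nr4a-TKO. Atp5a1, the α subunit that alternates with β in the catalytic ring, was at 11.68 and 11.74 in naive T and at 11.72 and 11.79 at 3 h. The brightest probes of the ring partners thus differed, with 0.04 and 0.05 for Atp5a1. A second, dimmer Atp5a1 probe gave 0.22 and 0.40. Atp5c1, the γ subunit that forms the rotating shaft (chromosome 2, 9977718 to 9977777), was at 9.55 and 9.36 in naive T and at 9.09 and 9.11 at 3 h, which gave the lowest values of the complex, -0.47 and -0.24.

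The c ring of the ATP synthase is made of 1 protein encoded by 3 genes. Atp5g3 was at 10.45 and 10.49 in naive T and at 11.10 and 11.04 at 3 h. This brightest Atp5g3 probe gave 0.65 and 0.56, and its second probe -0.15 and 0.12. Atp5g2 was at 9.45 and 9.63 in naive T and at 9.42 and 9.40 at 3 h. For Atp5g1 the probes disagreed: the brightest was at 12.15 and 12.12 in naive T and at 12.03 and 11.95 at 3 h, while the others gave differences of 1.75 and 1.57, and of 1.30 and 1.44. The brightest Atp5g1 probe was designed on an Ensembl transcript and the other 2 on RefSeq transcripts, and which of them follows the gene was not tested. Whether the probes also bind near-identical copies or pseudogenes was not analysed here.

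Further members had probes that disagreed. In 36 members with 2 or more probes above background, 26 of 46 further probes lay within 0.5 of the brightest in both stage differences, and 4 lay over 1 apart, in 3 genes. Besides Atp5g1 these were Ndufa13 and Ndufa3, both membrane arm subunits. The brightest Ndufa13 probe gave -0.20 and -0.23, from 11.02 and 11.07 in naive T to 10.81 and 10.83 at 3 h, and the other 1.55 and 0.06. The brightest Ndufa3 probe gave -0.46 and -0.12, from 9.50 and 9.30 to 9.04 and 9.18, while its other probes gave 0.62 and 0.38, and -0.46 and -0.47. When all probes of a gene were averaged, 16 of the 17 higher members stayed over 1.5-fold higher in both genotypes.

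Between the genotypes the members differed little. In naive T cells the median difference of the array labelled Nr4a-TKO from that labelled WT was -0.003 over the members, and 41 of 83 were above 0, compared with 48.5% of all genes. Past 2-fold, 1 member was higher (1.94% of all genes) and 0 were lower (1.68% of all genes). At 3 h the median was -0.04, and 30 of 83 members were above 0, compared with 50% of all genes. Past 2-fold, 0 were higher (1.74% of all genes) and 1 was lower (1.93% of all genes). The member past 2-fold was Cox8b in both cases.

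The size of the genotype difference, without its sign, had a median of 0.09 in naive T and 0.07 at 3 h over the members, against 0.18 and 0.17 over all genes. The gap depended on signal level. Among genes with a mean level above 10, the median size was 0.09 for members and 0.07 for all genes in naive T, and 0.09 and 0.08 at 3 h. Below a level of 8 it was 0.09 against 0.20 in naive T and 0.07 against 0.19 at 3 h.

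Over the 82 members above background on every array, the largest genotype difference was that of Cox6a1 in naive T, -0.49, followed at 3 h by -0.33. Sdhc, a membrane anchor of complex II, was at 8.73 under the WT label and 8.37 under the Nr4a-TKO label in naive T, and at 8.81 and 8.44 at 3 h. It was therefore lower by a like amount at both stages, -0.37 and -0.38. Cox4i1 was lower by -0.15 and -0.16, and Atp5j, a stalk subunit of the ATP synthase, by -0.26 and -0.29. It follows from these values that both genotypes had nearly the same stage difference in these 3 genes. A spread of 2 SD between spots was 0.33 in naive T and 0.38 at 3 h. The Cox4i1 and Atp5j differences lay within it, and that of Sdhc at 3 h did not pass it.

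**Figure D4:**
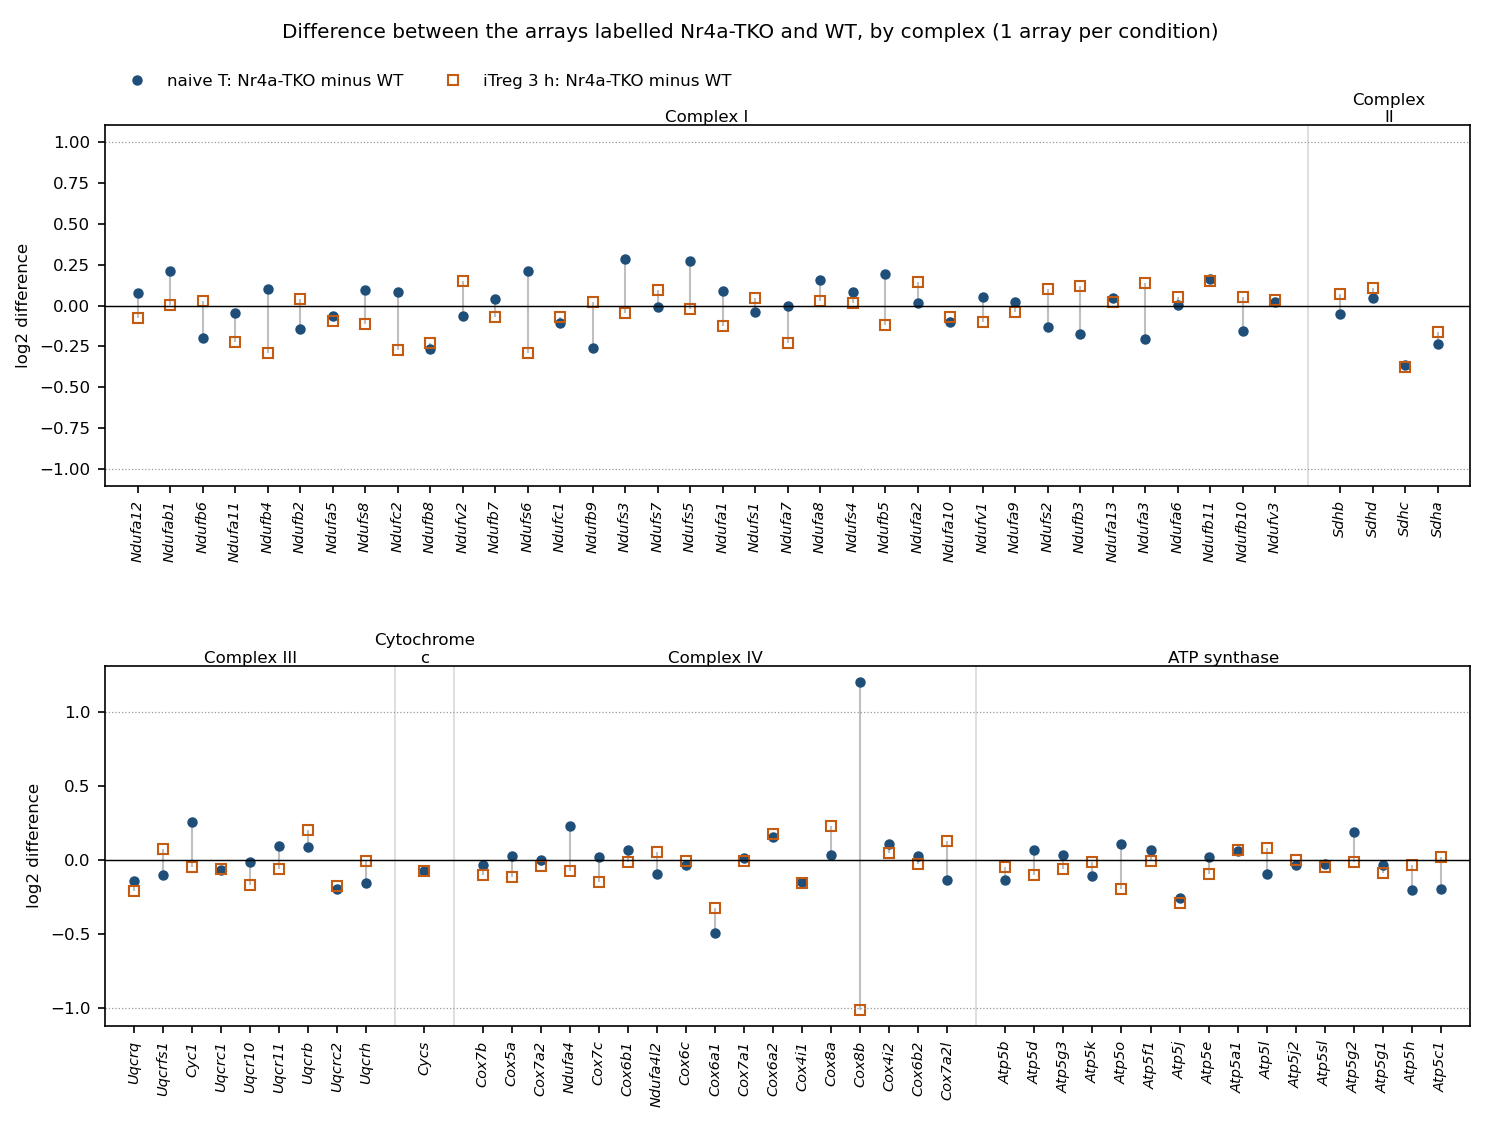
Log2 difference between the arrays labelled Nr4a-TKO and WT (y axis) for each of the 83 compared members (x axis, same order as in the plot of stage differences); filled circles are naive T cells, open squares iTreg cells at 3 h, 1 array per condition, and dotted lines mark 2-fold. All members but Cox8b lie between -0.49 and 0.28.

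Taken with its sign, the difference between the stages was lower on the Nr4a-TKO arrays than on the WT arrays in 45 of the 83 members. It was higher in 38, and the share over all genes was not counted. The median of this difference of differences was -0.02 over the members and 0.00 over all genes. Among members above background on every array it ranged from -0.50 for Ndufs6, a zinc-binding subunit of the N module, to 0.34 for Ndufa3. Ndufs6 was at 8.61 and 8.82 in naive T and at 9.38 and 9.09 at 3 h.

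Other genes of mitochondrial energy metabolism give the setting. The subunits encoded by mitochondrial DNA, of which 11 were on the array, had a median difference of -0.17 in WT and 0.06 in Nr4a-TKO. Above 0 were 2 and 7 of them, against 46.4% and 48.4% of all genes. ND2 was at 13.08 and 11.94 in naive T and at 11.87 and 11.89 at 3 h, so that the WT naive array stood above the other 3. It was the gene of this list past 2-fold, with -1.22 in WT and -0.06 in Nr4a-TKO. In naive T cells 10 of the 11 had the lower signal under the Nr4a-TKO label, as had 11871 of all 23113 genes compared. The median of the 11 was -0.35, whereas that of the nuclear members was -0.003. At 3 h, 7 of the 11 were higher under the Nr4a-TKO label (50% of all genes), with a median of 0.02.

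Assembly factors, which build the complexes without being part of them, had medians of 0.16 and 0.17 over 48 genes. Past 2-fold, 9 were higher in WT and 6 in Nr4a-TKO (8.5% and 7.74% of all genes). In each genotype 1 was lower (8.49% and 8.06% of all genes). The complex I factor Ndufaf4 gave 1.96 and 2.08, Ndufaf2 gave 1.47 and 1.13, and Ndufaf8 gave 1.05 and 1.14. The complex IV factors Sco2, a copper chaperone, and Pet117 gave 1.59 and 1.26, and 1.47 and 1.41. Cox10, which acts in the pathway to heme a for complex IV, gave 1.28 and 0.54, Ndufaf6 1.14 and 0.65, and Cox11 0.69 and 1.13. Sco1, another copper chaperone, was not well above background in naive T, so its differences were at least 1.07 and 0.88, and Ndufaf1 was not in WT naive T, so its difference was at least 1.05 in WT, and it was 0.57 in Nr4a-TKO. Uqcc3, a factor for complex III, gave -1.48 and -0.99, and Sdhaf4, a factor for complex II, gave -0.14 and -1.04.

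The tricarboxylic acid cycle enzymes had medians of 0.56 and 0.54 over 13 genes. Idh3a, a subunit of isocitrate dehydrogenase, gave 1.76 and 1.44, Suclg2 1.30 and 0.10, Sucla2 1.17 and 0.87, and the fumarase gene Fh1 1.05 and 1.01. Regulators of mitochondrial biogenesis had medians of 0.27 and 0.31 over 12 compared genes. Gabpb1, the partner of the Ets factor Gabpa, was at 7.75 and 8.07 in naive T and at 9.68 and 10.21 at 3 h, a difference of 1.93 and 2.14, and Tfb2m, needed to transcribe mitochondrial DNA, gave 1.03 and 0.90. The coactivator gene Ppargc1a was not well above background on any array. Mitochondrial ribosomal proteins had medians of 0.71 and 0.64 over 78 genes. In both genotypes 40 of them were over 1.5-fold higher (11.7% of all genes) and 0 over 1.5-fold lower (11.3% of all genes). Glycolysis enzymes had medians of 0.51 and 0.46 over 14 genes, and cytosolic ribosomal proteins 0.01 and 0.01 over 82 and 81 genes. Past 2-fold higher in WT and Nr4a-TKO were 22 and 23 mitochondrial ribosomal, 5 and 3 glycolysis and 3 and 2 cytosolic ribosomal genes. Of all genes, 8.5% and 7.74% were. The respiratory chain subunits thus had a lower median than the mitochondrial ribosomal proteins, the tricarboxylic acid cycle enzymes and the glycolysis enzymes on these arrays, and a higher one than the cytosolic ribosomal proteins. Atp5md and Atp5mpl, small ATP synthase proteins that the arrays list under older names and the rule therefore missed, gave 1.15 and 0.81, and 0.69 and 0.51.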

How the data were processed

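RNA of 4 samples was hybridized to Agilent SurePrint mouse arrays with Cy3. The deposited scanner files (Agilent Feature Extraction 11.5.1.1, per the labels) hold spot intensity, local background, a processed intensity and a score that flags spots well above background. A log2 table, also deposited, equals the log2 processed intensity after subtraction of the array's 75th percentile, while the authors' methods name RMA. Following RMA, mean intensities were corrected with normexp (offset 0), quantile-normalized over the 4 arrays, put on the log2 scale and averaged over the spots of a probe in limma 3.58.1 (R 4.3.3, data.table, version 1.17.8), leaving out control and outlier spots. Python 3.11.15, pandas 2.3.3, numpy 2.4.6 and matplotlib 3.10.9 did the rest. A gene took its brightest probe. Dim values below a floor were raised to it, the floor being the lowest signal called well above background on that array (3.07 to 3.45). A difference needed 1 array above background. With 1 array per group no test was run. The number of arrays limits the precision. The steps were tested on simulated data. Probe coordinates are mm9. The members and lists were chosen with earlier results of these data known. Values on all arrays are given for members past 2-fold, the extremes of each complex, isoforms, dim members and members with discordant probes. Genes past 2-fold are named from the lists of mitochondrially encoded subunits, assembly factors, tricarboxylic acid cycle enzymes and biogenesis regulators, while ribosomal proteins and glycolysis enzymes are given by counts and medians. Alternatives were other background corrections, normalizations, probe rules, filters and thresholds, and the deposited table.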

Additional observations from a re-analysis of the deposited data

Results flagged for a closer look

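Cox8b, the heart and muscle form of a complex IV subunit, differed between the stages in opposite directions on the WT and the Nr4a-TKO arrays. It was at 3.40 in WT naive T, 4.65 in Nr4a-TKO naive T, 4.46 in WT iTreg at 3 h and 3.45 in Nr4a-TKO iTreg at 3 h, and it was well above background in Nr4a-TKO naive T and WT iTreg at 3 h alone. The difference between the stages was at least 2.02-fold higher in WT and at least 2.30-fold lower in Nr4a-TKO, and the change on the Nr4a-TKO arrays minus that on the WT arrays was -2.21 or lower, because the dim value of each pair is itself a bound. With 1 array per condition this difference was not tested. With a normexp offset of 50 the stage differences were 0.24 and -0.30.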

How the results depend on the processing

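No paired test was run, since each genotype gives 1 pair of stages, and both pairs are given side by side. Leaving out an array would leave its group empty. The medians of the 4 comparisons and of the complexes kept their sign under the alternatives that could give one, except that the naive genotype median, -0.003, ranged from -0.011 to 0.01. Of 318 values under 14 alternatives, 275 stayed within the spread between spots, or within 1.5 times for a count, 43 moved and 0 reversed. The cause was not tested unless the setting states it.

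With processed intensities scaled to the 75th percentile, 11 members were over 2-fold higher in WT (9.93% of all genes) and 10 in Nr4a-TKO (9.25%). Over 2-fold lower in WT was 1 (11.6%), and 9 had both 3 h arrays below both naive arrays (39.5%). The complex I median in Nr4a-TKO was 0.27. With the deposited table these values were 13 (10.2% of all genes), 10 (9.61%), 1 (11.4%), 8 (37.6%) and 0.29. Its Nr4a-TKO medians of complexes II and III and the ATP synthase were 0.41, 0.75 and 0.30. Averaging probes moved the complex I median in Nr4a-TKO to 0.27.

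With a normexp offset of 50, 4 members were over 2-fold higher (4.2% of all genes) and 1 lower (3.99%) in WT. In Nr4a-TKO 1 was lower (3.49%), and 0 differed over 2-fold between genotypes in either direction. The latter count, 1 in the report for Cox8b, was also 0 without background correction and with genes above background on all 4 arrays. With no filter on dim probes, 1 member was over 2-fold higher in Nr4a-TKO at 3 h. Without the 4 genes that encode no subunit, 1 member was over 2-fold lower in WT (8.49% of all genes). At 1.5-fold, 27 members were higher in WT (17.1% of all genes) and 18 in Nr4a-TKO (16.2%). At 3-fold, 0 members passed in any comparison and direction.

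Centring on the median of all genes was chosen after seeing the data. Together with the 75th percentile it gave a WT median of 0.50, WT medians of 0.46, 0.47, 0.88, 0.36 and 0.37 for complexes I, II, III and IV and the ATP synthase, and Nr4a-TKO medians of 0.33, 0.46, 0.79 and 0.35 for complexes I, II and III and the ATP synthase.

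Signal over background limits Cox8b, Cox7b2, Cox8c and Atp5s, whose values lie near the floor.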
